A study of Homo sapiens with 6 samples.

Results

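The SLC25 family supplies the mitochondrial carriers, membrane proteins that move metabolites, nucleotides, cofactors and ions between the cytosol and the mitochondrial matrix. Its members were chosen by name: every gene of the deposited table whose symbol begins with SLC25A and a number, without antisense and pseudogene symbols. This gave 42 genes of 18164 in the table. Of the 48 carriers in the transport classes used here, SLC25A2, SLC25A6, SLC25A31, SLC25A41, SLC25A47 and SLC25A52 were not analysed here.

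The libraries came from HEK293, an established line of human embryonic kidney cells, here a commercial line grown in suspension. Transfected cultures (3 libraries, numbered 1 to 3) received plasmids of a 2-plasmid system for making adeno-associated virus (AAV) together with a polymer-based reagent, and were harvested at 18 h. Untransfected cultures (3 libraries, numbered 1 to 3) received PBS without plasmid DNA or reagent and were harvested at the same time, so any difference combines the plasmids, their products and the reagent. Total RNA was read as stranded libraries, and the deposited values are TPM, transcript abundances that are corrected for transcript length and add up to a fixed total in every library. The labels number the replicates but do not state separate cultures, so a p-value here speaks only to how far the 6 libraries scatter, and that scatter may be technical. A transfected culture can hold cells that did and did not take up plasmid. In such bulk RNA, fewer cells that express a gene and less of its RNA per cell cannot be told apart.

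Most SLC25 proteins sit in the inner mitochondrial membrane, which is otherwise closed to charged metabolites, and work by opening in turn to the cytosol and to the matrix, often exchanging a substrate on one side for another on the opposite side. They link cytosolic and mitochondrial metabolism: ADP/ATP carriers export the ATP made by oxidative phosphorylation, the citrate carrier exports carbon for fatty acid and sterol synthesis, and the aspartate/glutamate carriers are part of the malate-aspartate shuttle for reducing equivalents. Some members lie elsewhere, such as SLC25A17 in peroxisomes and SLC25A46 in the outer mitochondrial membrane.

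Promoter sequence is shown for 3 members whose level differed between the groups: the citrate carrier SLC25A1 and the calcium-regulated carrier SLC25A23, both lower in transfected cultures, and the glycine carrier SLC25A38, which was higher. The windows are the 250 bases before a gene start in RefSeq (GRCh38.p14), limited to bases outside annotated exons and written 5′ to 3′ on the gene's strand. Capitals mark the GC box (GGGCGG) and the CCAAT box (CCAAT), each searched on both strands. The SLC25A1 stretch is chr22:19178831-19178986 on the minus strand and covers bases 250 to 95 before the start. The SLC25A23 stretch is chr19:6459793-6460042, minus strand. The SLC25A38 stretch is chr3:39383120-39383323 on the plus strand and covers bases 250 to 47 before the start.
SLC25A1: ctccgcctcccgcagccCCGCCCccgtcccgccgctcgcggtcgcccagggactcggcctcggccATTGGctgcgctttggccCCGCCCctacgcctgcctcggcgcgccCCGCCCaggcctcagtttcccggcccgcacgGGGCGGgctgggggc
SLC25A23: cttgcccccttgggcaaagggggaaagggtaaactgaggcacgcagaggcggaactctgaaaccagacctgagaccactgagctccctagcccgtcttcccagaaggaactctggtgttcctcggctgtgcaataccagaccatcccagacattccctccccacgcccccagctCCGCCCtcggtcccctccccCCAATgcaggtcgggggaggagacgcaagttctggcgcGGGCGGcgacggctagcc
SLC25A38: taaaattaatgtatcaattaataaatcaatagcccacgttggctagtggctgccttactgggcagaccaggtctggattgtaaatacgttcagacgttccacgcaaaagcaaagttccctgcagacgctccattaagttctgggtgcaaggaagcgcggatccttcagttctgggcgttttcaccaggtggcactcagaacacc
The SLC25A1 stretch held 4 GC boxes and 1 CCAAT box, the SLC25A23 stretch held 2 and 1, and the SLC25A38 stretch held neither.

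Across the family, promoter windows were matched by symbol for 36 of the 42 members. GC boxes lay in the windows of 28 of these 36 genes, against 46.2% of 27305 genes with a window. They were present in 6 of 6 matched members that were lower in transfected cultures, in 1 of 2 that were higher (SLC25A25), and in 20 of 26 that did not pass the test. CCAAT boxes lay in 19 of 36 members, against 37.0% of all genes. They were found in 5 of 6 lower members, all but SLC25A10, in 1 of 2 higher members (SLC25A25) and in 12 of 26 that did not pass. The E-box CACGTG was found in 7 members, among them SLC25A38 at 44 bases before its start, and in 7.73% of all genes. The cyclic AMP response element TGACGTCA was found in SLC25A25, SLC25A33 and SLC25A36, and in 2.03% of all genes. The ETS motif CCGGAAGT was found in 4 members and in 4.13% of all genes, and TGATGNAA, a C/EBP-ATF element, in 1 member, SLC25A11, and in 3.89%. The motif of NRF1 was found in 0 members and 1.28% of all genes, and the sterol response element SRE-1 in 0 members and 0.0439%. Different motifs did not overlap in the members' windows. These matches are descriptions of letters, and no binding was measured. The 27305 genes are all symbols with a RefSeq window, not matched to the carriers by gene type or expression. A gene counted if any of its windows held the motif. The carriers' shares were not tested against those of all genes.

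Transcript levels of the carriers reached from 0.17 TPM to 661 TPM in single libraries. The most abundant was SLC25A5, an ADP/ATP carrier (ANT2), with 593 ± 27.6 TPM in the transfected and 617 ± 63.0 TPM in the untransfected group (mean ± SD, n = 3 in each group, as for all values below). Next came the glutathione carrier SLC25A39 and the oxoglutarate carrier SLC25A11, both above 100 TPM in every library. The lowest were SLC25A18, SLC25A32 and SLC25A34, which failed the filter of at least 1 TPM in at least 3 libraries and were not tested. SLC25A18, the glutamate carrier GC2, stood at 0.45, 0.57 and 0.74 TPM in transfected libraries 1 to 3 and at 0.17, 0.27 and 0.19 TPM in untransfected libraries 1 to 3. Of its 4741 exonic bases, 521 are shared with the opposite-strand gene AC007666.1. For AC007666.1, transfected libraries 1 to 3 held 0.9, 1 and 1.33 TPM, and untransfected libraries 1 to 3 held 0.17, 0.19 and 0 TPM. The strand setting of the counting is not known here, so reads of these genes may be mixed. SLC25A32, which carries folate or FAD, lay between 0.20 and 0.62 TPM over the 6 libraries with overlapping groups; 2547 of its 3654 exonic bases are shared with the same-strand gene AC012213.5, which was not analysed here, so its level is uncertain. SLC25A34 reached at most 0.64 TPM in transfected libraries and lay between 0.69 and 1.22 TPM in untransfected ones.

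**Figure D1:**
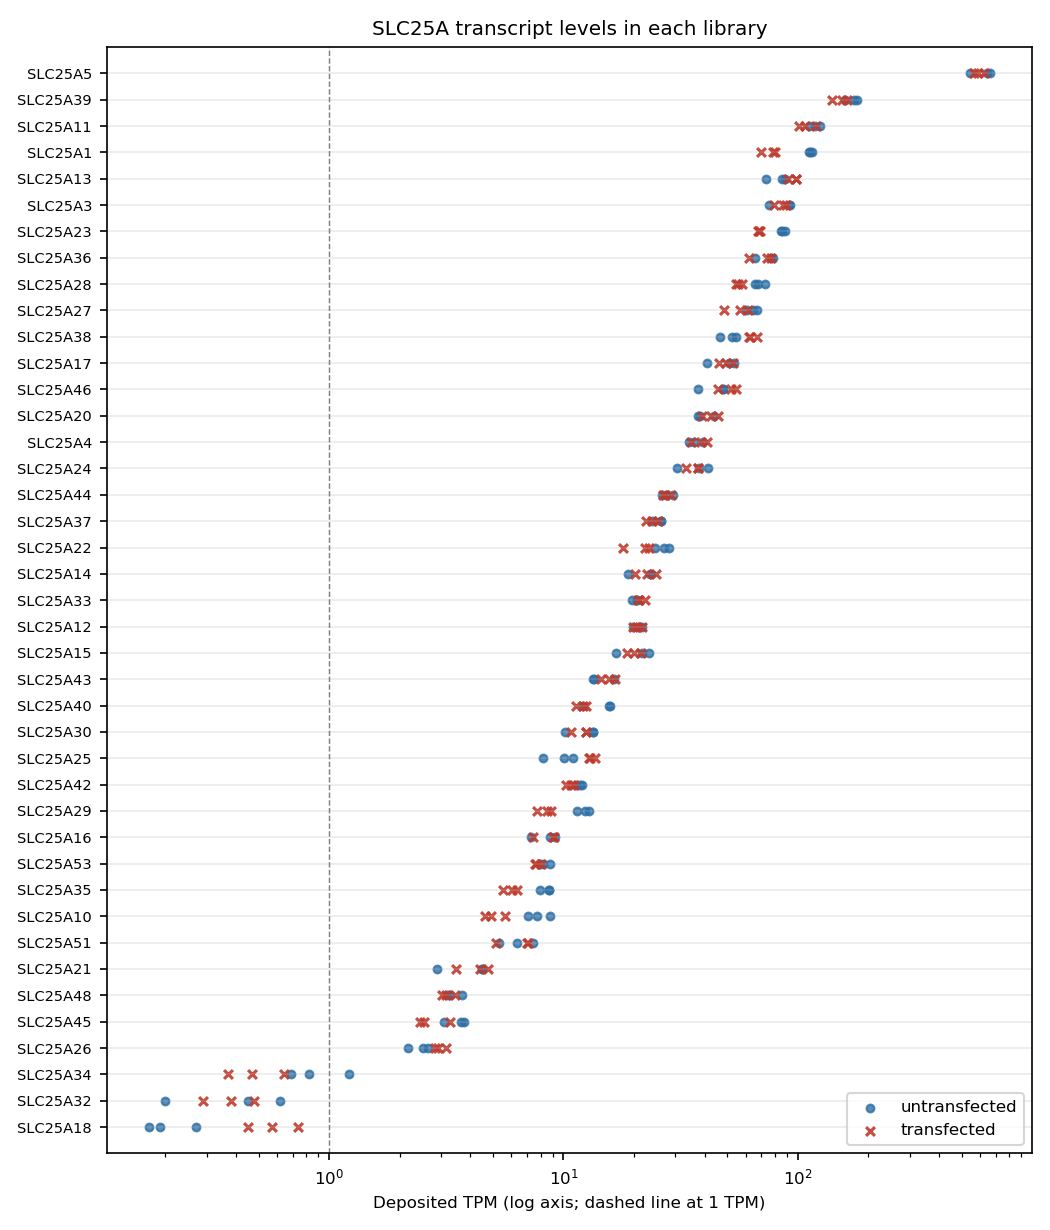
Deposited TPM of 41 of the 42 SLC25A genes on a logarithmic axis, with untransfected libraries as circles, transfected libraries as crosses and a dashed line at 1 TPM. SLC25A5 lies above all other carriers in every library, and SLC25A18, SLC25A32 and SLC25A34 lie at the low end.

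Of the 39 tested carriers, 3 rose and 7 fell in transfected cultures, and 29 did not pass (limma on log2(TPM + 1), Benjamini-Hochberg adjusted p under 0.05 over 16145 tested genes). With quantile normalization 11 of 39 fell. With rescaling outside mitochondrial and the 20 most abundant genes 12 of 40 fell, and without transfected library 2 only 1 rose. Over all tested genes, too, more were called lower in those 2 scalings, and fewer were called higher without that library. The median log2 fold over all tested genes turned from 0.05 to -0.014 with quantile normalization and to -0.032 with rescaling. Whether the carriers moved further than all genes was not tested. SLC25A25 and SLC25A38 were among those that rose. SLC25A1, SLC25A10, SLC25A29, SLC25A35, SLC25A23, SLC25A22 and SLC25A28 fell. The changes were modest: mean TPM changed by -35.7% to -18.2% in the genes that fell and by 24.8% and 35.1% in SLC25A38 and SLC25A25. Over all tested genes 30.2% were called, 20% as higher and 10.2% as lower, so that the carriers' 7.69% higher lay below the share over all genes and their 17.9% lower lay above it; this difference in shares was not tested. The groups did not overlap in 6 carriers with the transfected libraries above (15.4%, against 29.2% of all tested genes) and in 8 with the untransfected libraries above (20.5%, against 17.3%). The median log2 fold of the 39 carriers was -0.03, against 0.05 over all tested genes, and its sign turned to 0.019 without transfected library 1 and to 0.014 without untransfected library 1. In those settings the median over all tested genes was 0.071 and 0.066.

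**Figure D2:**
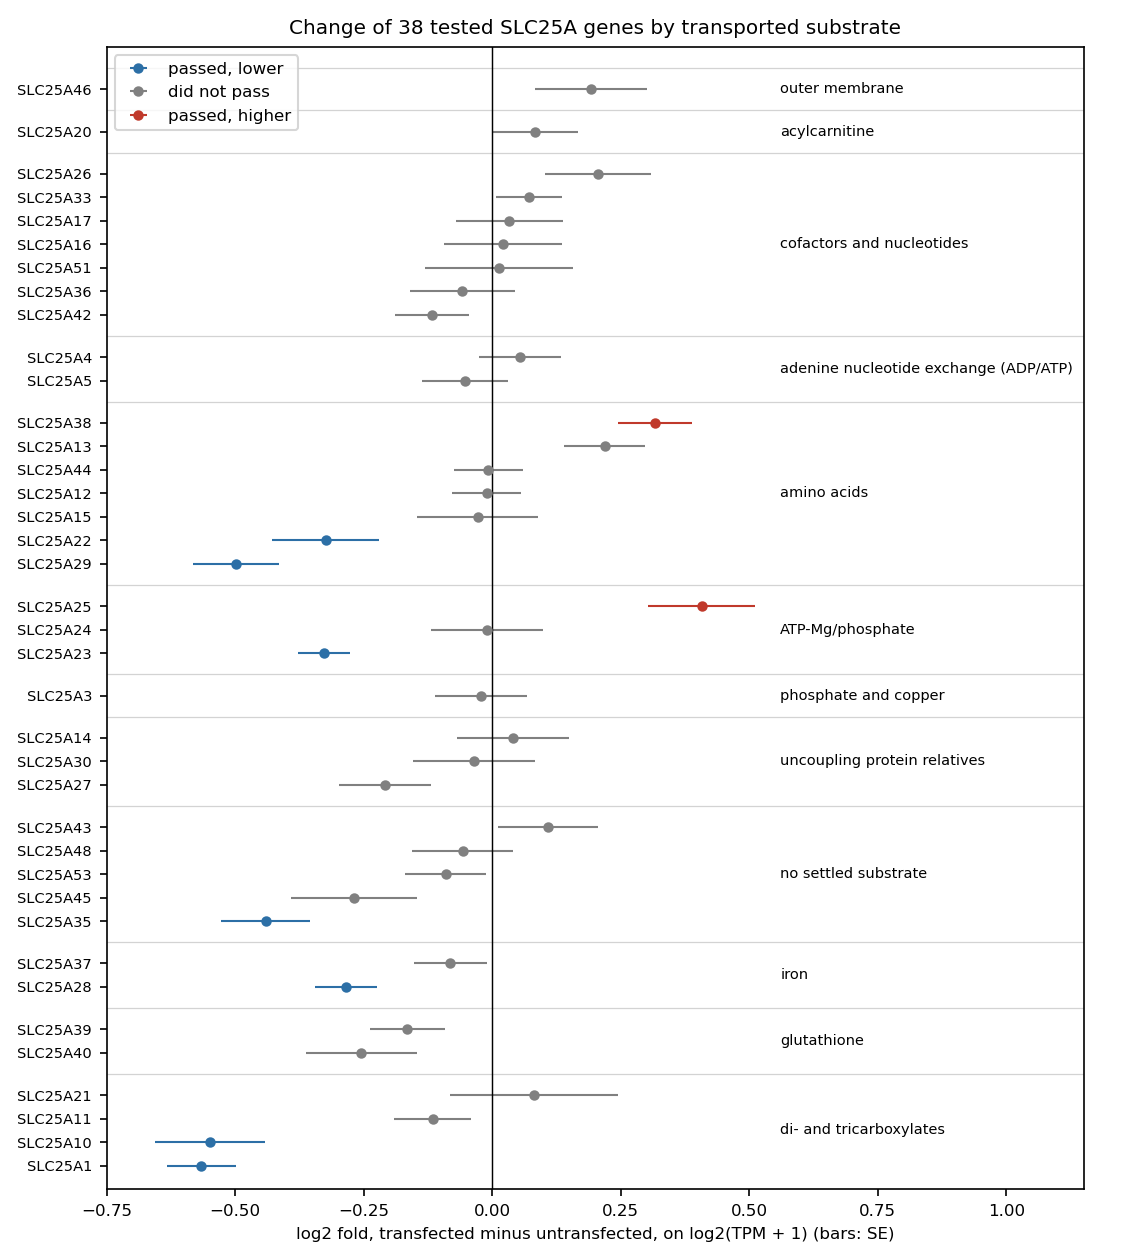
Log2 fold (transfected minus untransfected, on log2(TPM + 1)) of 38 of the 39 tested SLC25A genes by transport class, with bars for the standard error and colours for genes that passed the test. The 7 genes that fell are spread over 5 classes, SLC25A38 and SLC25A25 rose, and 24 folds lie below 0.

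The carriers of di- and tricarboxylates held 2 of the 7 genes that fell. SLC25A1 (ENSG00000100075, chr22:19175575-19178830, minus strand; gene positions here and below are those of GENCODE 29 on GRCh38), the citrate carrier, exports citrate in exchange for malate. It stood at 80.2, 69.4 and 78.7 TPM in transfected libraries 1 to 3 and at 111, 115 and 112 TPM in untransfected libraries 1 to 3. Every transfected library lay well below every untransfected one, and the log2 fold was -0.57 (SE 0.066, adjusted p = 0.00104), and mean TPM fell by 32.6%. SLC25A10 (chr17:81712236-81721016, plus strand), the dicarboxylate carrier, exchanges malate or succinate for phosphate. Its TPM were 4.89, 4.64 and 5.65 in transfected and 8.80, 7.72 and 7.08 in untransfected libraries. The groups did not overlap, and the log2 fold was -0.55 (SE 0.107, adjusted p = 0.00726). In GENCODE 29, 1221 of the 2621 exonic bases of SLC25A10 are shared with the same-strand gene AC139530.2, which was not analysed here, so its value is uncertain.

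The more abundant oxoglutarate carrier SLC25A11, the malate-aspartate shuttle's exchanger of malate and oxoglutarate, did not pass. Its TPM were 107, 101 and 119 in transfected and 118, 125 and 112 in untransfected libraries, so the groups overlapped (log2 fold -0.12, adjusted p = 0.276). SLC25A21, a carrier of oxodicarboxylates such as oxoadipate, stood at 4.21 ± 0.666 and 3.96 ± 0.927 TPM; its opposite-strand neighbour SLC25A21-AS1, which shares 586 of its 3703 exonic bases, was higher (15.7 ± 1.12 against 10.4 ± 1.94 TPM, adjusted p = 0.0104). Within each library SLC25A11 was 1.34, 1.46 and 1.52 times SLC25A1 in transfected cultures and 1.06, 1.09 and 0.995 times in untransfected ones. The 2 carriers, close to equal in untransfected cultures, were thus further apart in transfected ones.

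Among 7 tested amino acid carriers 1 rose, 2 fell and 4 did not pass. SLC25A38 (chr3:39383324-39397351, plus strand) imports glycine for heme synthesis. It stood at 62.0, 66.9 and 62.6 TPM in transfected and 52.4, 54.3 and 46.7 TPM in untransfected libraries. All transfected libraries lay above the untransfected ones (log2 fold 0.32, SE 0.071, adjusted p = 0.0126), but without transfected library 2 the adjusted p was 0.0566. SLC25A29 (chr14:100291111-100306547, minus strand), a carrier of basic amino acids such as arginine and lysine, had 7.73, 8.83 and 8.49 TPM in transfected and 12.3, 12.9 and 11.4 TPM in untransfected libraries. It fell without overlap by 0.50 on the log2 scale (SE 0.084, adjusted p = 0.00402).

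SLC25A22 (chr11:790475-798333, minus strand), the glutamate carrier GC1, was measured at 23.2, 17.9 and 22.3 TPM in transfected and 27.0, 24.5 and 28.3 TPM in untransfected libraries. The groups lay close together without overlap, and transfected library 2 was the lowest (log2 fold -0.32, SE 0.105, adjusted p = 0.0488). This call passed in 8 of 16 alternative settings; it was lost without transfected library 2 or 3 and without any of the 3 untransfected libraries, with adjusted p up to 0.129. SLC25A13, an aspartate/glutamate carrier (citrin) and the most abundant of the class, had 90.8, 98.6 and 98.2 TPM in transfected and 88.1, 86.0 and 73.4 TPM in untransfected libraries. Its groups did not overlap, but it did not pass (log2 fold 0.22, adjusted p = 0.0715). Its paralog SLC25A12 (aralar) stood at 20.7 ± 0.859 and 20.9 ± 0.888 TPM, so the ratio of SLC25A13 to SLC25A12 was 4.64 ± 0.284 in transfected and 3.95 ± 0.224 in untransfected libraries, without overlap. SLC25A15, which carries ornithine, and SLC25A44, which carries branched-chain amino acids, had log2 folds of -0.03 and -0.01.

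The ATP-Mg/phosphate carriers are regulated by calcium and adjust the adenine nucleotide content of the matrix; 1 of their 3 genes rose, 1 fell and 1 did not pass. SLC25A23 (chr19:6436079-6465203, minus strand) was measured at 68.9, 67.6 and 68.2 TPM in transfected and 84.5, 85.3 and 87.9 TPM in untransfected libraries. The groups were narrow and far apart (log2 fold -0.33, SE 0.050, adjusted p = 0.00274). Its paralog SLC25A25 (chr9:128068201-128109245, plus strand) had 13.7, 12.9 and 13.0 TPM in transfected and 11.0, 10.1 and 8.22 TPM in untransfected libraries. It rose without overlap by a log2 fold of 0.41 (SE 0.104, adjusted p = 0.0209), the largest rise among the tested carriers. The call was lost when transfected library 1, 2 or 3 was left out, with adjusted p up to 0.0610. SLC25A25 shares 665 of 4936 exonic bases with SLC25A25-AS1 on the opposite strand, which also rose (8.01 ± 0.277 against 5.65 ± 0.365 TPM, adjusted p = 0.00636). The libraries were stranded, but the strand setting of the counting is not given in the sources used here, so reads of the pair may be mixed.

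The third gene, SLC25A24, stood at 36.2 ± 2.30 and 36.7 ± 5.48 TPM. Within a library the ratio of SLC25A25 to SLC25A23 was 0.198, 0.190 and 0.191 in transfected cultures and 0.130, 0.118 and 0.0935 in untransfected ones. The mean ratio was 1.70 times as high in transfected cultures, and the ratio of SLC25A24 to SLC25A23 was also higher without overlap (0.530 ± 0.0383 against 0.428 ± 0.0707).

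**Figure D3:**
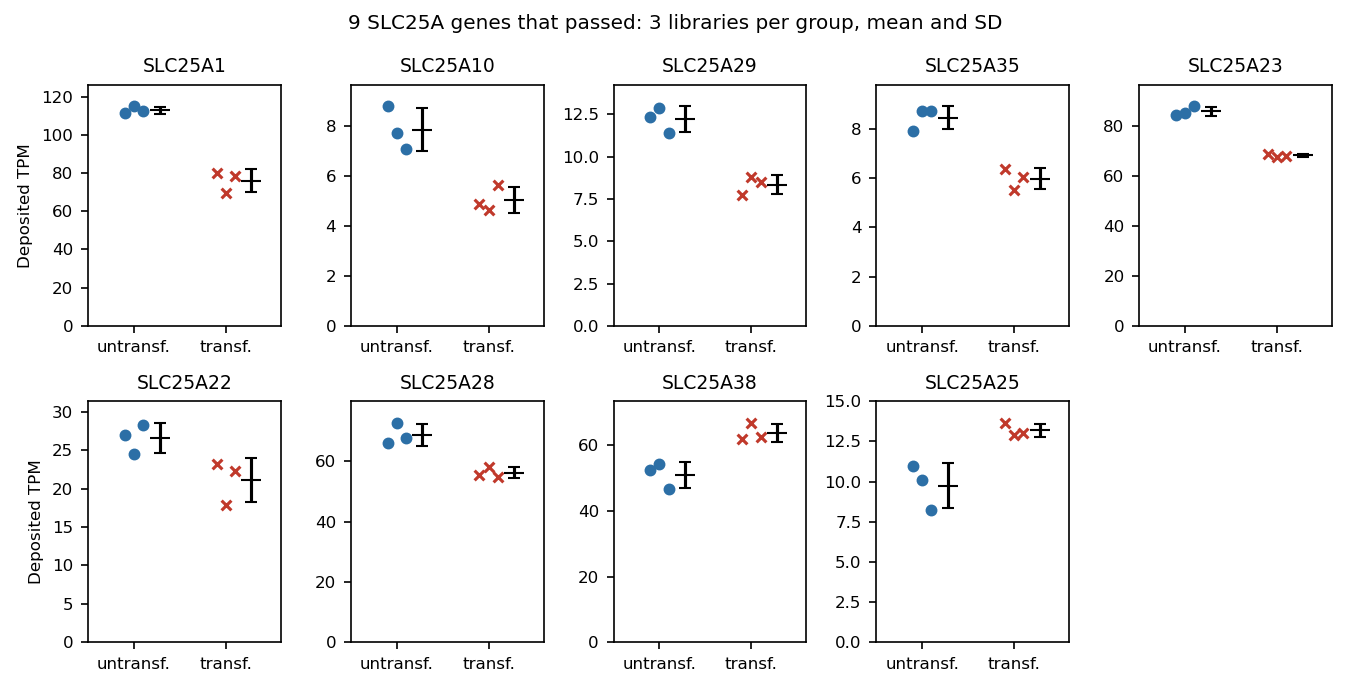
Deposited TPM of 9 of the 10 SLC25A genes that passed the test, with 3 untransfected libraries (circles) and 3 transfected libraries (crosses) for each gene and the mean and SD beside them; each axis starts at 0. In these 9 genes the groups do not overlap, and the distance between them is smallest relative to the spread in SLC25A22.

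Of the 8 tested carriers of cofactors and nucleotides, 1 rose and 7 did not pass. SLC25A36, a pyrimidine nucleotide carrier, was the most abundant of this class at 61.6, 77.1 and 73.8 TPM in transfected and 77.0, 78.7 and 65.4 TPM in untransfected libraries. Its groups overlapped (log2 fold -0.06). SLC25A33, its paralog, stood at 21.4 ± 0.770 and 20.3 ± 0.621 TPM, and SLC25A26, the S-adenosylmethionine carrier, at 2.97 ± 0.171 and 2.45 ± 0.248 TPM. In both, the transfected libraries lay above without passing the test. The coenzyme A carrier SLC25A42 lay lower without overlap (10.7 ± 0.403 against 11.7 ± 0.377 TPM) and did not pass. SLC25A16, SLC25A17 and the NAD carrier SLC25A51 had log2 folds of 0.02, 0.03 and 0.01.

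The iron carriers, or mitoferrins, bring iron to the matrix for heme and iron-sulfur clusters. SLC25A28 (mitoferrin-2, chr10:99610522-99620609, minus strand) had 55.5, 58.1 and 54.7 TPM in transfected and 65.8, 72.6 and 67.5 TPM in untransfected libraries. It fell without overlap by 0.29 on the log2 scale (SE 0.060, adjusted p = 0.00978), and without transfected library 3 its adjusted p was 0.0501. SLC25A37 (mitoferrin-1) stood at 23.9 ± 1.36 and 25.4 ± 1.31 TPM and did not pass. The ratio of SLC25A37 to SLC25A28 was 0.406, 0.412 and 0.462 in transfected and 0.397, 0.359 and 0.354 in untransfected libraries, with the transfected libraries just above the others.

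SLC25A35 (chr17:8287763-8295343, minus strand) was the only gene that passed among 5 tested carriers whose substrate is not settled here. Its TPM were 6.35, 5.52 and 6.04 in transfected and 7.93, 8.72 and 8.71 in untransfected libraries. The groups did not overlap (log2 fold -0.44, SE 0.087, adjusted p = 0.00743). Opposite-strand RANGRF shares 1293 of its 3897 exonic bases and stood at 75.3 ± 7.14 and 66.8 ± 4.41 TPM, a difference of the other sign that did not pass. SLC25A43, the most abundant of this class, had 14.5, 16.6 and 15.6 TPM in transfected and 13.3, 16.4 and 13.5 TPM in untransfected libraries, with overlap. SLC25A45, SLC25A48 and SLC25A53 had log2 folds of -0.27, -0.06 and -0.09 and did not pass.

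The carriers most directly tied to ATP supply did not pass. SLC25A5 was measured at 567, 590.1 and 622 TPM in transfected and 645, 661 and 545 TPM in untransfected libraries. The groups overlapped because untransfected library 3 was the lowest of all 6 (log2 fold -0.05, adjusted p = 0.670). SLC25A4 (ANT1), the isoform typical of heart and muscle, stood at 38.1 ± 2.98 and 36.7 ± 2.58 TPM. SLC25A5 made up 93.6%, 94.4% and 93.8% of the summed TPM of the pair in transfected and 94.7%, 94.4% and 94.1% in untransfected libraries, a difference of -0.413 percentage points (exact permutation test, two-sided, p = 0.3, where 0.1 is the smallest possible). These genes are close copies and SLC25A5 has processed pseudogenes; how shared reads were assigned is not given in the sources used here. SLC25A3, which imports the phosphate for ATP synthesis and also copper, had 79.2, 86.9 and 89.3 TPM in transfected and 91.6, 92.8 and 75.6 TPM in untransfected libraries, again with overlap.

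The remaining classes held no gene that passed. SLC25A39, a glutathione carrier, had 154, 139.8 and 163 TPM in transfected and 174, 178 and 159.6 TPM in untransfected libraries. Its groups overlapped through transfected library 3 and untransfected library 3 (log2 fold -0.17, adjusted p = 0.122). Its paralog SLC25A40 stood at 12.0 ± 0.628 and 14.6 ± 2.08 TPM (log2 fold -0.25, adjusted p = 0.110). Without untransfected library 3 both passed as lower, with adjusted p of 0.0484 for SLC25A39 and 0.0103 for SLC25A40. The carnitine/acylcarnitine carrier SLC25A20 had 42.4, 39.2 and 45.6 TPM in transfected and 38.4, 44.1 and 37.5 TPM in untransfected libraries. These overlapped. Among relatives of the uncoupling proteins SLC25A27 (UCP4) was the most abundant at 48.4, 61.3 and 56.9 TPM in transfected and 67.0, 64.3 and 60.8 TPM in untransfected libraries, where transfected library 2 overlapped the untransfected ones (log2 fold -0.21, adjusted p = 0.116). SLC25A14 and SLC25A30 had log2 folds of 0.04 and -0.04. SLC25A46, of the outer membrane, had 45.6, 54.5 and 52.0 TPM in transfected and 47.8, 47.9 and 37.5 TPM in untransfected libraries, with overlap (log2 fold 0.19, adjusted p = 0.219).

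Ratios within a library do not change when all its values are multiplied by 1 factor. Quantile normalization does not use a single factor and can change them. Of 11 ratios between related carriers, chosen after values had been seen and not tested, 6 lay higher in every transfected library than in any untransfected one, and 1, SLC25A27 to SLC25A14, lay lower (2.46 ± 0.210 against 2.93 ± 0.257). All of the higher ratios but SLC25A13 to SLC25A12 have a carrier called lower as their second gene, so they partly restate those calls. The sixth of the higher ratios, SLC25A11 to SLC25A10, was 21.6 ± 0.432 against 15.1 ± 1.45. The other 4, among them SLC25A39 to SLC25A40 (12.7 ± 1.35 against 11.8 ± 1.13) and SLC25A5 to SLC25A4 (15.6 ± 1.12 against 16.8 ± 1.00), overlapped.

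**Figure D4:**
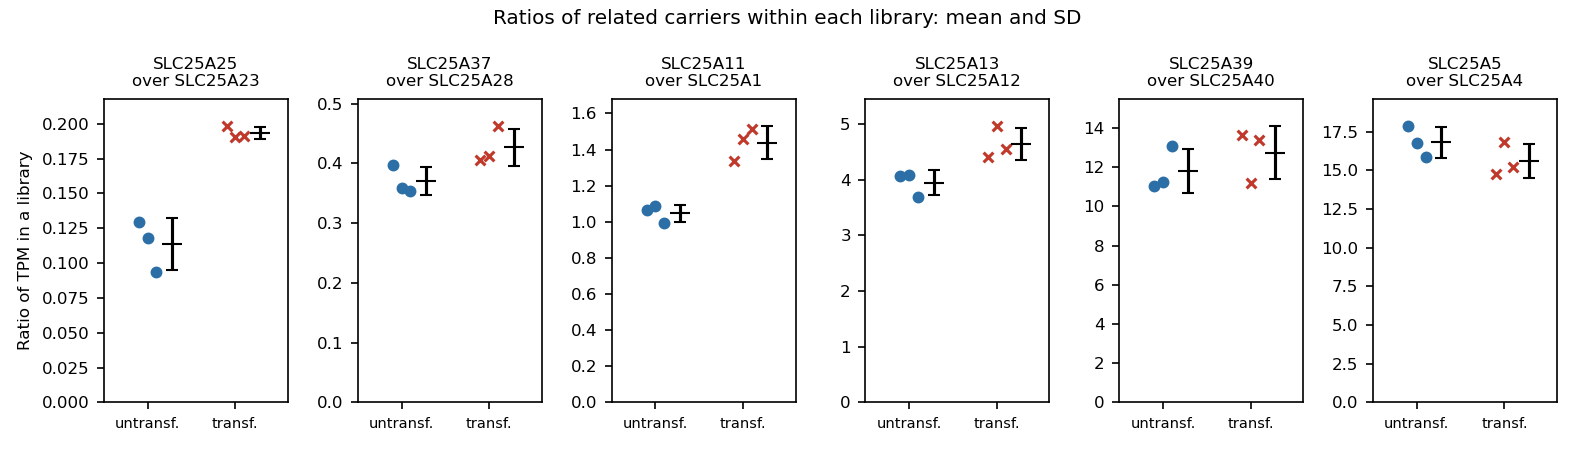
Ratio of TPM between 2 related carriers in each library for 6 of the 11 pairs, with untransfected libraries as circles, transfected libraries as crosses and mean and SD beside them; each axis starts at 0. The ratios of SLC25A25 to SLC25A23, SLC25A37 to SLC25A28, SLC25A11 to SLC25A1 and SLC25A13 to SLC25A12 are higher in every transfected library, and the last 2 pairs overlap.

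Summed over all 42 carriers, the family took 1897, 1957 and 2058 TPM in transfected and 2131, 2179 and 1900.4 TPM in untransfected libraries. The groups overlapped through untransfected library 3, and the difference was -99.6 TPM (exact permutation test, two-sided, p = 0.3). In that library the 13 mitochondrially encoded mRNAs made up 36.4% of all TPM, against 27.1% to 31.2% in the other 5, and it held the lowest value of its group in 28 of 39 tested carriers and in 64.3% of all tested genes. Transfected library 1, with 30.1% of mitochondrial mRNA, was the lowest of its group in 23 of 39 carriers and 54.4% of all tested genes. Another scale, chosen after seeing the data, was per 1000000 TPM outside all mitochondrially encoded genes, not only those 13 mRNAs. There the family took 2773, 2758 and 2874 in transfected and 3151, 3174 and 3047 in untransfected libraries. On that scale the groups did not overlap, with a difference of -322 and the smallest exact p that 3 against 3 libraries allow (p = 0.1). The ADP/ATP carriers SLC25A4 and SLC25A5 made up 30.5% to 32.2% of the TPM summed over the 42 carriers in the 6 libraries. SLC25A6 and SLC25A31, of the same class, are not part of either sum. Amino acid carriers made up 11.4% to 13.3%, cofactor and nucleotide carriers 10.2% to 11.6%, and di- and tricarboxylate carriers 9.17% to 12.3%.

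The genes that work beside the carriers were read from 7 lists, and 9 of 69 tested rose (13.0%, against 20% of all tested genes) and 13 fell (18.8%, against 10.2%), with a median log2 fold of -0.04. The 22 calls make up 31.9% of the 69, near the 30.2% over all tested genes. With quantile normalization the split was 5 to 23, with median-ratio scaling 7 to 21, and with rescaling outside mitochondrial and the 20 most abundant genes 6 to 25. Over all tested genes, too, fewer were called higher and more lower with each of these scalings. Their median log2 fold turned from 0.05 to -0.014, -0.011 and -0.032, in the same order. Whether the partner genes moved further than all genes was not tested. Among 10 enzymes of the malate-aspartate shuttle and citrate export, which act on the substrates of SLC25A1, SLC25A11 and SLC25A13, 1 rose and 3 fell. IDH1, the cytosolic NADP-dependent isocitrate dehydrogenase, fell from 61.9 ± 8.0 to 41.3 ± 3.76 TPM (log2 fold -0.57, adjusted p = 0.00615). ACLY, which splits exported citrate into acetyl-CoA and oxaloacetate, fell from 587 ± 25.7 to 500.2 ± 14.8 TPM (log2 fold -0.23), and IDH2, the matrix enzyme, from 94.2 ± 3.52 to 80.7 ± 1.44 TPM (log2 fold -0.22). GOT2, the matrix aspartate aminotransferase, rose from 173 ± 9.86 to 201 ± 6.71 TPM (log2 fold 0.22). The IDH1 call passed in all 16 alternatives. The others were lost with the replicate block (a fit with the replicate number as a term), GOT2 also with quantile normalization and with no variance trend. They were lost too without transfected library 1 or 2 or untransfected library 1 or 2 (ACLY, highest adjusted p over all alternatives 0.0913), without transfected library 2 or 3 or untransfected library 1 or 2 (IDH2, 0.0796), and without transfected library 1, 2 or 3 or untransfected library 1 (GOT2, 0.172).

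Of 11 enzymes of mitochondrial folate-linked and proline metabolism, 2 rose and 2 fell, and these 4 passed in all 16 alternatives. MTHFD1L and MTHFD1, folate enzymes that work with formate in the mitochondrion and the cytosol, rose from 50.4 ± 4.73 to 73.9 ± 1.59 TPM (log2 fold 0.55) and from 90.3 ± 4.13 to 119 ± 2.54 TPM (log2 fold 0.39). PYCR1, the last enzyme of proline synthesis, fell from 168 ± 5.39 to 137 ± 7.49 TPM (log2 fold -0.29), and SHMT2, which makes glycine from serine in the matrix, fell from 126 ± 4.75 to 104 ± 4.18 TPM (log2 fold -0.27). The list thus held changes in both directions.

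Of 11 iron-sulfur and heme genes 3 rose and 2 fell. PPOX, a late enzyme of heme synthesis, fell from 16.2 ± 0.501 to 10.1 ± 0.595 TPM (log2 fold -0.63, adjusted p = 0.00104) and passed in all 16 alternatives. ALAS1, which joins glycine and succinyl-CoA in the opening step of the pathway fed by SLC25A38, rose from 84.6 ± 5.22 to 99.9 ± 2.13 TPM (log2 fold 0.24), a call lost with quantile normalization, with the block and without transfected library 1, 2 or 3 (highest adjusted p 0.0895). LYRM4, of the iron-sulfur cluster assembly machine, had a log2 fold of 0.21, and NFS1, its cysteine desulfurase, named after its values were seen, had -0.18. LYRM4 passed in 3 of 16 alternatives and was lost under each scaling, the block and without any one of the 6 libraries (highest adjusted p 0.170). NFS1 passed in 9 of 16 and was lost with the block, with no variance trend and without any library but untransfected library 3 (0.172).

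Among 11 genes of mitochondrial nucleotide and cofactor metabolism, 1 rose and 1 fell. COASY, the coenzyme A synthase, fell from 83.1 ± 2.63 to 62.7 ± 2.02 TPM (log2 fold -0.40) and passed in all 16 alternatives. Of 4 tested genes of the carnitine shuttle, which serves SLC25A20, 2 fell: CPT1C from 9.63 ± 0.712 to 6.80 ± 0.476 TPM (log2 fold -0.45), and CRAT from 14.9 ± 0.263 to 12.0 ± 0.581 TPM (log2 fold -0.29). The CRAT call was lost with the block and without transfected library 3 or untransfected library 1 (highest adjusted p 0.0719).

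Of 4 tested family members with other symbols, 1 fell. UCP2, an uncoupling protein relative, had 61.8, 63.4 and 69.0 TPM in transfected and 76.3, 80.3 and 78.3 TPM in untransfected libraries. It fell without overlap (log2 fold -0.27, adjusted p = 0.0122), though not without transfected library 2 (adjusted p 0.0534). The outer-membrane insertase MTCH2 stood at 124 ± 4.75 and 117 ± 11.2 TPM and did not pass. Of 18 other transporters of mitochondrial membranes, 2 rose and 2 fell. SFXN4 and SFXN2, sideroflexins, moved apart: SFXN4 rose from 62.0 ± 4.23 to 82.9 ± 4.04 TPM (log2 fold 0.41) and SFXN2 fell from 19.9 ± 0.980 to 15.8 ± 0.670 TPM (log2 fold -0.32), both in all 16 alternatives. The calcium uniporter pore MCU rose from 40.7 ± 1.23 to 46.5 ± 1.20 TPM (log2 fold 0.19), a call that passed in 5 of 16 alternatives and was lost under each scaling, with the block, with no variance trend and without any one of the 6 libraries (highest adjusted p 0.152). TSPO, of the outer membrane, fell from 38.7 ± 1.95 to 30.4 ± 4.33 TPM (log2 fold -0.35), and its call was lost with the block, with no variance trend and without transfected library 2 or untransfected library 1 or 2 (highest adjusted p 0.102).

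The cells' identity was read from markers of HEK293. NEFL lay between 77.9 and 80.0 TPM in transfected and between 66.8 and 72.0 TPM in untransfected libraries, NEFM between 14.6 and 17.6 and between 11.6 and 12.6 TPM, and EYA1 between 11.4 and 12.5 and between 7.65 and 8.04 TPM. These 3 markers were thus higher in every transfected library than in any untransfected one. PAX2 lay between 3.85 and 5.23 TPM and LHX1 between 0.33 and 0.57 TPM over the 6 libraries, with overlap. Of 8 markers of leukocytes, hepatocytes, fibroblasts and endothelium, 3 were in the table (ALB, COL1A1 and DCN), with summed levels of 13.1 to 15.1 TPM in transfected and 14.7 to 15.8 TPM in untransfected libraries, nearly all from COL1A1, which lay between 12.2 and 13.9 TPM in transfected and between 14.4 and 15.5 TPM in untransfected libraries. ALB lay between 0.73 and 1.13 TPM in transfected and between 0.05 and 0.21 TPM in untransfected libraries, and DCN between 0.12 and 0.18 and between 0.21 and 0.27 TPM; PTPRC, CD3E, APOA1, PECAM1 and CDH5 were not analysed here. The part of these genes in the carriers' results was not tested.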

How the data were processed

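TPM per gene for 6 libraries were calculated and deposited by the authors. Per the submitters' processing notes, STAR and GRCh38 were used; for the counting tool, strand setting and annotation release, each is not given in the sources used here. Rows repeating an Ensembl ID (134 of 18298) were dropped. TPM keeps no read depth, so no counting interval is given, and abundant transcripts that rise push down the TPM of others. The test covered 16145 genes that reached 1 TPM in 3 libraries or more, on log2(TPM + 1) with limma 3.58.1 in R 4.3.3 (two-sided, with a mean-variance trend and no term but group). P-values were adjusted by Benjamini-Hochberg over these genes, with a threshold of 0.05. A pseudocount of 1 understates changes of low genes. The script was tested on simulated data. Sums and shares used an exact permutation test over libraries. Gene positions and overlaps came from GENCODE 29, promoter windows from RefSeq.

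Members and lists were chosen with earlier results of these data known, so lists get counts and medians only. In each class, up to 6 genes that passed and the most abundant gene are given per library; in each partner list, up to 4 that passed. Some genes are not reported here by name or in the figures; the counts include them. There were 16 alternatives: pseudocounts of 0.1 and 5, a filter of 5 TPM or none, quantile normalization, median-ratio scaling, rescaling outside mitochondrial and the 20 most abundant genes, no trend, a replicate block, leaving out each library, and leaving out transfected library 1 with untransfected library 3.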

Additional observations from a re-analysis of the deposited data

How the results depend on the processing

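The 10 carriers that passed kept their sign in 160 of 160 alternative fits and their call in 147; 6 passed in all 16 alternatives, among them SLC25A1, SLC25A10, SLC25A23, SLC25A29 and SLC25A35. Of the 29 that did not pass, 7 passed in at least 1 alternative (18 fits): SLC25A11, SLC25A13, SLC25A27, SLC25A37, SLC25A39, SLC25A40 and SLC25A46. The 3 carriers called higher became 1 to 3 when a library was left out (1 without transfected library 2). They became 5 without transfected library 1 and untransfected library 3 together. SLC25A18, whose reads may be mixed with those of AC007666.1, was added where the filter was dropped. The 7 called lower became 11 with quantile normalization and 12 of 40 with rescaling outside mitochondrial and the 20 most abundant genes. When a library was left out, 5 to 8 were called lower. Of 39 folds, 15 were positive on deposited TPM, 10 with median-ratio scaling and 11 with quantile normalization, and after rescaling 8 of 40. The median of those 40 was -0.12. That of 39 was -0.12 to 0.019 when a library was left out (0.019 without transfected library 1, 0.014 without untransfected library 1). The median over all tested genes was 0.05 as deposited, -0.03 after rescaling and 0.008 to 0.081 when a library was left out. Partner genes called higher fell from 9 to 5 with quantile normalization and to 4 to 6 without a library (4 without transfected library 1, 2 or 3, 5 without untransfected library 1). Partner genes called lower, 13 as deposited, became 21 with median-ratio scaling, 23 with quantile normalization, 25 after rescaling and 8 to 18 without a library (8 without transfected library 2 or untransfected library 1). The difference in summed TPM lay between -184.5 and -45.0 when a library was left out, and the SLC25A5 share difference between -0.635 and -0.253 percentage points. With each scaling, more genes were called lower and fewer higher over all tested genes as well. The cause of these shifts was not tested. Depth is unknown in TPM, so its part in the precision of low carriers cannot be given.

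Replicate numbers are shared by the groups but not stated to pair cultures. Same-numbered libraries had correlations of deviations of -0.184, 0.107 and -0.163, and only untransfected library 2 correlated best with its own number. The largest correlation, 0.309, lay between transfected library 1 and untransfected library 3. With the replicate block, 3 carriers were higher and 7 lower, the same 10 genes; of the partner genes, 4 were higher and 8 lower.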
